A study of Mus musculus with 6 samples.

Results

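The 9 genes described here encode the Indian hedgehog and parathyroid hormone-related protein (PTHrP) signals of the growth plate and the proteins that receive and relay them. They are the ligand genes Ihh and Pthlh, the receptor genes Ptch1, Smo and Pth1r, the Hedgehog inhibitor gene Hhip, and the transcription factor genes Gli1, Gli2 and Gli3. They were listed by gene symbol, with earlier results of these data known, and all 9 are among the 23420 genes of the deposited table. Of the 9, 8 had a mean of at least 1 normalized read over the 6 libraries and were tested; Pthlh did not.

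Humeri of 6-day-old C57BL/6 mice were profiled by poly(A) RNA sequencing, in 3 Tfam cKO libraries and 3 Control libraries. In Tfam cKO mice the gene for mitochondrial transcription factor A, which packages and transcribes mitochondrial DNA, is deleted through Prx1-Cre, a driver active in the mesenchyme that forms the limb skeleton. Control mice are labelled by that word alone, and the sources used here do not say whether they carry Cre or a floxed Tfam allele. The bones of all 6 libraries had their marrow washed out with PBS before extraction. Prx1-Cre does not act in blood-forming cells, osteoclasts or endothelium, so these cells of the bone keep Tfam in both groups.

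In a growing long bone, chondrocytes that stop dividing and begin to enlarge secrete Indian hedgehog. The signal reaches dividing chondrocytes and the perichondrium, where it releases Smoothened from inhibition by Patched 1 and lets the GLI factors act on their target genes, among them Ptch1, Hhip and Gli1. Indian hedgehog also keeps up PTHrP made near the joint, and PTHrP, acting on its receptor Pth1r in chondrocytes below, delays enlargement and with it the onset of Ihh.

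The libraries held 1441152 to 1714770 reads assigned to genes, so a gene with a handful of reads is measured loosely. Whether the libraries come from separate animals is not stated, and p-values measure the spread between these libraries, which may be technical. Tfam had 28.1, 46.1 and 47.6 normalized reads in Tfam cKO libraries, against 61.3, 72.1 and 78.6 in Control libraries, and the groups did not overlap (log2 fold change -0.81 ± 0.21 SE, limma adjusted p = 0.0246). That call ended without Tfam cKO replicate 1 (adjusted p = 0.0755), without Control replicate 2 (0.0687) or without Control replicate 3 (0.107). Muscle transcripts set libraries apart: the summed level of 8 skeletal muscle genes was 9507 normalized reads in Tfam cKO replicate 1 and 1103 to 4243 in the other Tfam cKO libraries, and it was 6581 in Control replicate 2 and 1044 to 2654 in the other Control libraries. Values without Tfam cKO replicate 1 and Control replicate 2 together, an alternative chosen after seeing the data, are therefore given with the results.

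Of the 8 tested genes, 4 were higher in Tfam cKO (Ihh, Ptch1, Hhip and Pth1r), and the other 4 did not pass. Over all 14438 tested genes, 12.4% passed in either direction, 6.42% as higher and 6.01% as lower. On the recovered whole reads, edgeR called 3 of the 8 higher, against 6.47% of all genes, and DESeq2 called 2, against 4.65%. With 1 library left out, limma called 1 gene higher when that was replicate 1 or 3 of Tfam cKO or replicate 1 of Control, 2 when it was replicate 3 of Control, and 3 when it was replicate 2 of either group. Leaving out both muscle-rich libraries gave 0 by limma. Fewer libraries enter that fit, and it called 672 of all genes, against 1795 in the main fit. None was lower by limma, edgeR or DESeq2, and at an unadjusted p under 0.05 limma counted 5 higher and 0 lower. The libraries of the genotypes did not overlap for 5 genes that were higher in Tfam cKO (the 4 and Smo) and for 1 that was lower (Gli1), where 32.1% of all tested genes were separated in either direction and 16.6% as higher. The median log2 fold change was 0.40 for the 8 genes and 0.01 for all tested genes. Ihh, with no read in Control, passed the filter on low values only through Tfam cKO libraries, so these counts describe the 8 genes and are no test of them as a group. The log2 fold changes are of normalized reads plus 1, on which the change of a gene with few reads comes out too small.

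**Figure D1:**
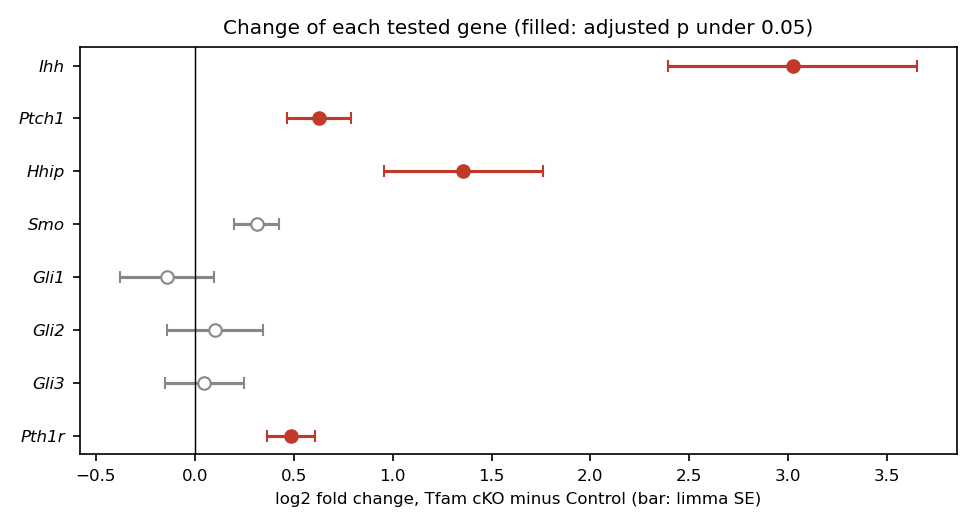
Log2 fold change of each tested gene, Tfam cKO minus Control, on the scale of normalized reads plus 1 (points, with limma SE as bars; filled points have an adjusted p under 0.05). Ihh stands at 3.02, Hhip at 1.36, Ptch1 at 0.63 and Pth1r at 0.49, while Smo stands at 0.31 and Gli1, Gli2 and Gli3 lie between -0.14 and 0.10.

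The promoters of the 4 genes that passed are shown so that the DNA beside their start sites can be read with the expression values. Each line gives the 250 bases before a start site annotated by RefSeq (GRCm38.p6, the assembly of mm10), 5′ to 3′ on the strand of the gene, which is the minus strand for all 4. Capitals mark GC boxes (GGGCGG or its complement CCGCCC) and the cyclic AMP response element TGACGTCA.
Ihh: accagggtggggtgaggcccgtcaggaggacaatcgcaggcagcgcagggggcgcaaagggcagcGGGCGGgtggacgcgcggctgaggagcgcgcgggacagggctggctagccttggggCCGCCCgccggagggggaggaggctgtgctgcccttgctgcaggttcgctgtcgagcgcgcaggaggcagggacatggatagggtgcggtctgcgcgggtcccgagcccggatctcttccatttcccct
Ptch1: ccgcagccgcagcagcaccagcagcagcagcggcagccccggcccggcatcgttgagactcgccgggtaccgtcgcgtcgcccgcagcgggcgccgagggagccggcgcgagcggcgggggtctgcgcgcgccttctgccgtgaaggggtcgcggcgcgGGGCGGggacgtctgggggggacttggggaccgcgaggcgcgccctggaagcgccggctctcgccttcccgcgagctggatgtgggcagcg
Hhip: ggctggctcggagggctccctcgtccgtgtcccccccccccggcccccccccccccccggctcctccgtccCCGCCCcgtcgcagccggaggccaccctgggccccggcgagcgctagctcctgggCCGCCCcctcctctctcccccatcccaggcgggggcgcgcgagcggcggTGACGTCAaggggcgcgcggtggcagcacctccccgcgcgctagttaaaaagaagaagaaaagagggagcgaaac
Pth1r: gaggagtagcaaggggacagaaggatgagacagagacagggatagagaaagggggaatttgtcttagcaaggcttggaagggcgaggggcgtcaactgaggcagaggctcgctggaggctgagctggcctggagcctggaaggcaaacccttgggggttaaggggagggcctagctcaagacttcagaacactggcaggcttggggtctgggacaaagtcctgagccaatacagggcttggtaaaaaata
The windows lie at chr1:74951673-74951922 for Ihh, chr13:63565736-63565985 for Ptch1, chr8:80058009-80058258 for Hhip and chr9:110747146-110747395 for Pth1r. For Pth1r this is the start farthest upstream of 3 that RefSeq annotates, and it matches the outer exon end in the deposited table. The Hhip start matches its outer exon end too, the Ihh start lies 21 bases from it, and that of Ptch1 215 bases from it. A match of this kind does not show which start is used in these bones.

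The windows of Ihh, Ptch1 and Hhip had a GC content of 72.0%, 78.4% and 76.0%, and that of Pth1r 56.0%. GC boxes were found once in the Ptch1 window, at 91 bases before the start, and in 2 places each for Ihh and Hhip; the Pth1r window shown held none. The windows of the other 2 Pth1r starts, not shown, had a GC content of 65.6% and 70.4% and held 1 and 4 GC boxes. Of 32851 annotated mouse promoters, 32.7% hold a GC box in a window of the same length. The cyclic AMP response element, the motif bound by CREB proteins, lay 75 bases before the Hhip start and in 1.55% of all promoters. It reads the same on both strands. The 9-base GLI motif GACCACCCA was searched on both strands (as TGGGTGGTC on the other) in 10 windows of 8 of the genes, and no window held these letters; 0.225% of all promoters do. A match in letters is not a site shown to be bound, and a window without one says nothing of sites elsewhere.

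Ihh, the Hedgehog ligand of the growth plate, had 13.0, 11.3 and 2.12 normalized reads in Tfam cKO libraries, and 0 in all 3 Control libraries. Every Tfam cKO library held the transcript, and the groups did not overlap, but Tfam cKO replicate 3 was much the lowest of its group. In whole reads, the Tfam cKO libraries held 12, 12 and 2, a sum of 26 with an exact Poisson 95% interval of 17.0 to 38.1, against a sum of 0 in Control with an upper limit of 3.69. These intervals cover counting error only. The Tfam cKO mean was 8.99-fold a floor of 3 reads over the Control group. That value is no lower bound on the fold, since it leaves out counting error and the Control upper limit of 3.69 is above the floor. The fitted change was 3.02 ± 0.63 (SE) on the log2 scale (limma adjusted p = 0.00776). With no read in Control its size depends on the number added to the reads, and it ran from 1.35 to 6.17 over 19 alternatives. Leaving out any 1 library kept the call (adjusted p = 0.00401 to 0.0434), and leaving out both muscle-rich libraries ended it (2.63, adjusted p = 0.0945). Ihh lies on the minus strand of chromosome 1, at 74945318 to 74951651, in 3 exon blocks.

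Some markers of the chondrocytes that express Ihh were higher in the same libraries. Of 7 tested genes on a list of prehypertrophic chondrocyte markers, 5 were higher in Tfam cKO, but Ihh and Pth1r are 2 of these. Of the 5 tested besides Ihh and Pth1r, 3 were higher, where 6.42% of all tested genes were. The summed level of the whole list, Ihh and Pth1r included, was 2025 to 2913 normalized reads in Tfam cKO libraries and 1031 to 1261 in Control libraries. Mef2c, Sp7 and Pth1r made up most of the Control sum, at means of 346, 344 and 246. Sp7 is also on the osteoblast list, so the sum is not that of these chondrocytes alone. Col10a1, the collagen of enlarged chondrocytes, had 1387, 682 and 709 normalized reads in Tfam cKO libraries, against 42.2, 129 and 39.8 in Control (log2 fold change 3.84, adjusted p = 6.38e-05). The channel gene Panx3 (1.33, adjusted p = 1.30e-04) and Runx3, a transcription factor of chondrocyte maturation (0.85, adjusted p = 0.00641), rose as well. Within Tfam cKO, Panx3 had 240, 199 and 285 normalized reads and Runx3 70.3, 62.1 and 86.8. Both were thus highest in replicate 3, where Ihh was lowest, while Col10a1 was highest in replicate 1. Sp7 (0.29, adjusted p = 0.0994) and Mef2c (0.21, adjusted p = 0.189) did not pass. Foxa2 and Foxa3, transcription factors of enlarging chondrocytes, were below the filter. On the list of 6 hypertrophic markers, 5 were higher, again beside 6.42% of all tested genes. Ibsp, a sialoprotein of mineralizing matrix, was among the 5 (1.30, adjusted p = 1.57e-04). The list's summed level was 18816 to 23884 in Tfam cKO and 12014 to 12800 in Control. Spp1 made up most of that sum, at 11606 to 13875 in Tfam cKO and 7543 to 8421 in Control, and Ibsp and Alpl are also on the osteoblast list, so the sum is not that of chondrocytes alone. The part of these transcripts in the Ihh result was not tested. In bulk RNA, a different number of cells of a type and a different amount of RNA per cell cannot be told apart.

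Pthlh, which encodes PTHrP, was near the limit of detection in both genotypes. It had 1.08, 0.941 and 0 normalized reads in Tfam cKO libraries, and 0, 0.937 and 1.99 in Control libraries. The groups overlapped, with 1 library of each at 0. These values are 1, 1 and 0 whole reads in Tfam cKO and 0, 1 and 2 in Control, sums of 2 (exact Poisson 95% interval 0.242 to 7.22) and 3 (0.619 to 8.77). Both sums are at or under the floor of 3 reads, so no fold is given and a difference was not detectable at this depth. Pthlh lies on the minus strand of chromosome 6, at 147252110 to 147264085, in 4 exon blocks. PTHrP is made by resting and periarticular chondrocytes. Of the 6 tested genes on the list of their markers, 1 fell, Wif1, a secreted Wnt inhibitor (-0.91, adjusted p = 3.76e-04), while the BMP antagonist Grem1 did not pass (-1.47, adjusted p = 0.0692) except without Tfam cKO replicate 1 (-1.94, adjusted p = 0.0275). The other 4 did not pass and had positive values, Prg4 at 2.12 (adjusted p = 0.0963), Cytl1 at 1.59 (0.260), Gdf5 at 1.39 (0.185) and Clu at 0.41 (0.181). The list's summed level, largely Wif1, was 393 to 471 normalized reads in Tfam cKO and 548 to 659 in Control, opposite in direction to its median log2 fold change of 0.90. In Control, Wif1 had a mean of 523 and Clu, the next highest of the list, 70.9. Which cells held the Wif1 transcript was not tested, so neither its fall nor that of the sum can be assigned to these chondrocytes. Sfrp5, another marker on this list, was at 0 in all 6 libraries.

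**Figure D2:**
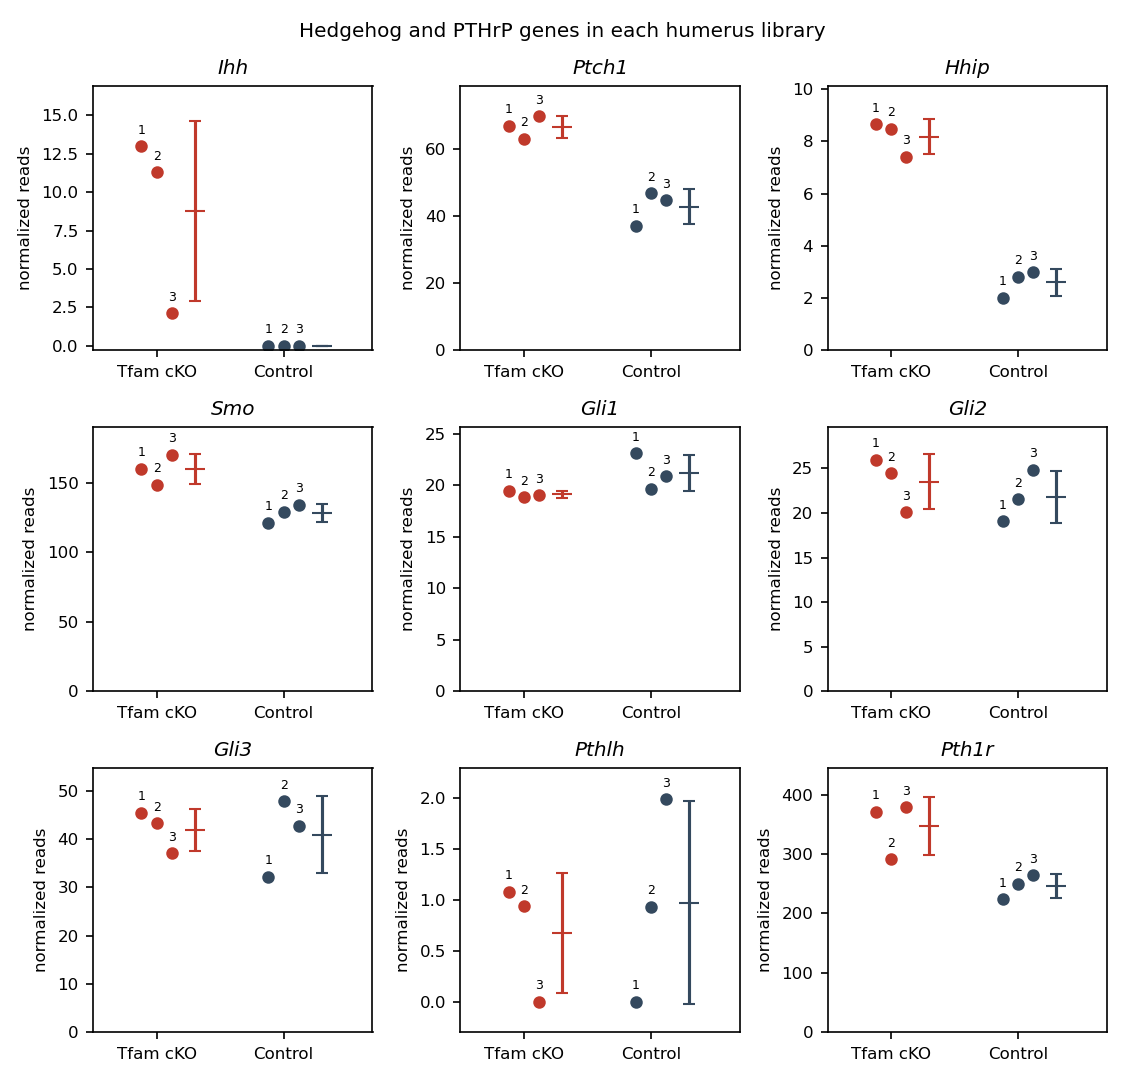
Normalized reads of each of the 9 genes in every library (points, numbered by replicate), with the mean and SD of each group beside them, Tfam cKO at left. Tfam cKO points lie above all Control points for Ihh, Ptch1, Hhip, Smo and Pth1r, below them for Gli1, and among them for Gli2, Gli3 and Pthlh.

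Ptch1, the Hedgehog receptor and itself a target of the pathway, had 67.1, 63.1 and 69.8 normalized reads in Tfam cKO libraries, against 37.2, 46.8 and 44.8 in Control libraries. The groups did not overlap, and the gap between them was wider than the spread within either. The means were 66.7 ± 3.40 in Tfam cKO and 42.9 ± 5.09 in Control (SD, n = 3 each), so that Tfam cKO stood at 155% of Control. In limma the log2 fold change was 0.63 ± 0.16 (SE; adjusted p = 0.0243). The call ended without Tfam cKO replicate 1 (0.0710), Tfam cKO replicate 3 (0.0867), Control replicate 1 (0.103) or Control replicate 3 (0.0554), without both muscle-rich libraries (0.0990) and with DESeq2 (0.154), with a log2 fold change of 0.53 to 0.69 over all alternatives. Ptch1 lies on the minus strand of chromosome 13, at 63511533 to 63565520, in 23 exon blocks.

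Hhip encodes a membrane protein that binds Hedgehog ligands and limits their action, and it too is a pathway target. It had 8.66, 8.47 and 7.41 normalized reads in Tfam cKO libraries, against 2.01, 2.81 and 2.98 in Control libraries. The lowest Tfam cKO library was above the highest Control library, on few reads. These were 8, 9 and 7 whole reads in Tfam cKO, against 2, 3 and 3 in Control, and the ratio of the summed levels was 3.14, with a 95% counting interval of 1.36 to 8.09. On the log2 scale the difference was 1.36 ± 0.40 (SE; limma adjusted p = 0.0443). The call ended without any 1 of the 6 libraries (adjusted p = 0.0779 to 0.136), without both muscle-rich libraries (0.167), with edgeR (0.0511) and with DESeq2 (0.295), and 6 of 20 alternatives kept it. Hhip lies on the minus strand of chromosome 8, at 79965851 to 80058008, in 13 exon blocks.

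Smo, the membrane protein that passes the signal on once Ptch1 is bound, had 160, 149 and 170 normalized reads in Tfam cKO libraries, against 122, 129 and 134 in Control libraries. All Tfam cKO values were above all Control values, but the difference did not pass over all genes. It came to a log2 fold change of 0.31 ± 0.11 (SE), with a 95% interval of 0.07 to 0.56 and a limma adjusted p of 0.0943, and it passed in none of 20 alternatives (adjusted p = 0.0706 to 0.362). Smo lies on the plus strand of chromosome 6, at 29735497 to 29761366, in 12 exon blocks.

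Gli1, the activator whose transcription is the usual readout of Hedgehog signalling, had 19.5, 18.8 and 19.0 normalized reads in Tfam cKO libraries, against 23.1, 19.7 and 20.9 in Control libraries. The Tfam cKO values lay just under the Control values and close to one another. Gli1 differed by -0.14 ± 0.24 (SE) on the log2 scale, with a 95% interval of -0.66 to 0.38 and a limma adjusted p of 0.757. The upper bound of that interval is below the fitted change of Ptch1 (0.63), though not below the lower bound of the Ptch1 interval (0.28). Gli1 lies on the minus strand of chromosome 10, at 127329882 to 127341579, in 13 exon blocks, and 62 of its 3662 exon bases overlap Arhgap9 on the opposite strand.

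Gli2, the main activator downstream of Smo, had 26.0, 24.5 and 20.1 normalized reads in Tfam cKO libraries, against 19.1, 21.5 and 24.9 in Control. Gli3, which acts mostly as a repressor in the absence of ligand, had 45.4, 43.3 and 37.0 in Tfam cKO libraries, against 32.1, 47.8 and 42.8 in Control. The groups overlapped for both genes. The log2 fold change of Gli2 was 0.10 ± 0.24 (SE; 95% interval -0.42 to 0.62, limma adjusted p = 0.826), and that of Gli3 0.05 ± 0.20 (-0.39 to 0.48, adjusted p = 0.906). None of the 3 GLI genes passed with limma, edgeR or DESeq2, and 0 of the 3 did at an unadjusted p under 0.05 in any of these tools. Gli2 lies on the minus strand of chromosome 1, at 118834061 to 119053619, in 14 exon blocks, and Gli3 on the plus strand of chromosome 13, at 15463723 to 15730025, in 15 exon blocks.

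Pth1r, the receptor of PTHrP and of parathyroid hormone on chondrocytes and osteoblasts, had 371, 291 and 379 normalized reads in Tfam cKO libraries, against 224, 250 and 265 in Control libraries. The groups did not overlap, although Tfam cKO replicate 2 lay closer to Control than the other Tfam cKO libraries did. The means were 347 ± 48.7 in Tfam cKO and 246 ± 20.6 in Control (SD, n = 3 each), or 141% of Control. This difference was 0.49 ± 0.12 (SE) on the log2 scale (limma adjusted p = 0.0211). The call ended without Tfam cKO replicate 1 (0.0783), Tfam cKO replicate 3 (0.0904) or Control replicate 1 (0.106) and without both muscle-rich libraries (0.155). Pth1r lies on the minus strand of chromosome 9, at 110722085 to 110747145, in 17 exon blocks. Osteoblasts, the other cells known for this receptor, had markers that differed in direction: of 13 tested, 2 were higher and 4 lower. The higher genes were Ibsp (1.30) and Alpl, a phosphatase of mineralization (0.78, adjusted p = 8.59e-04), which are on the hypertrophic list too. The lower genes were the type I collagen genes Col1a1 (-1.09, adjusted p = 0.00738) and Col1a2 (-1.18, adjusted p = 0.00433), and Bglap, which encodes osteocalcin, at -1.68 (adjusted p = 9.51e-06) and Bglap2 at -1.34 (adjusted p = 8.41e-05). The collagen calls ended without Control replicate 1 (adjusted p = 0.0864 for Col1a1 and 0.0565 for Col1a2), and with quantile normalization Col1a1 turned to 0.02 and Col1a2 stood at -0.02. Bglap and Bglap2 are near-identical neighbours between which reads may be split. The summed level of the osteoblast list was 78566 to 89923 normalized reads in Tfam cKO and 147874 to 182587 in Control, almost all of it Col1a1 and Col1a2. The part of either cell type in the Pth1r result was not tested.

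The authors' deposited table, made from the same 6 libraries, gives a q-value of 1.67e-04 for Ihh, 0.0220 for Ptch1 and 0.0352 for Pth1r. In the authors' deposited table the q-value was 0.109 for Hhip, 0.328 for Smo and 1 for Gli1, Gli2, Gli3 and Pthlh. At q under 0.05, that table of the authors calls 6.62% of its genes.

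Levels of different genes can be set side by side once divided by exon length. Per kb of exon, Pth1r was the most abundant of the 9 in both genotypes, at 127.5 ± 17.9 normalized reads in Tfam cKO and 90.5 ± 7.56 in Control (SD, n = 3 each). Smo followed at 40.2 ± 2.72 in Tfam cKO and 32.3 ± 1.61 in Control, and Ptch1 at 15.5 ± 0.789 in Tfam cKO and 9.97 ± 1.18 in Control. The top 3 kept this order with separate ranges in each genotype. Receptor transcripts thus lay above those of the GLI factors in every library. Gli1 stood at 5.22 ± 0.090 per kb in Tfam cKO and 5.79 ± 0.475 in Control, Gli3 at 4.98 ± 0.519 and 4.85 ± 0.947, and Gli2 at 3.51 ± 0.454 and 3.25 ± 0.433. In Tfam cKO libraries Ihh, at 3.60 ± 2.39 per kb, ranked between Gli3 and Gli2, and the ranges of Gli1, Gli3, Ihh and Gli2 each overlapped the next. In Control libraries Gli1 and Gli3 overlapped, Gli2 was separate below them, and Ihh was last at 0. Hhip stood at 0.901 ± 0.074 per kb in Tfam cKO and 0.287 ± 0.057 in Control. Pthlh, at 0.446 ± 0.389 in Tfam cKO and 0.645 ± 0.658 in Control, was below Hhip in Tfam cKO libraries and overlapped it in Control libraries.

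**Figure D3:**
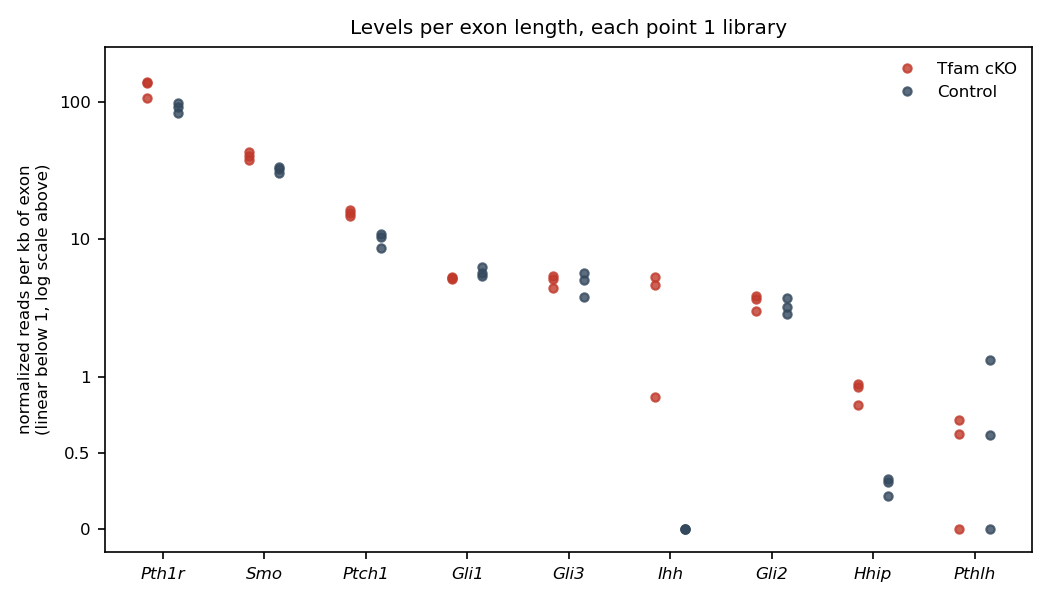
Normalized reads per kb of exon for each gene in each library (points; the axis is linear below 1 and logarithmic above), Tfam cKO left of Control. Pth1r, Smo and Ptch1 lead in both genotypes, and Ihh is at 0 in all 3 Control libraries and at 0.866 to 5.31 in Tfam cKO libraries.

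Ratios within a library do not depend on how libraries were scaled to each other. The ratio of Ptch1 to Gli1, both targets of the pathway, was 3.44, 3.35 and 3.67 in Tfam cKO libraries, against 1.61, 2.38 and 2.14 in Control libraries. The ratio of Hhip to Gli1 was 0.444, 0.450 and 0.389 in Tfam cKO, against 0.0870, 0.143 and 0.143 in Control. That of Ptch1 to Smo, the receptor over its partner, was 0.419, 0.424 and 0.410 in Tfam cKO, against 0.306, 0.362 and 0.333 in Control. All 3 ratios were separated between the genotypes, each higher in every Tfam cKO library, while that of Pth1r to Smo overlapped (2.32, 1.96 and 2.22 in Tfam cKO, against 1.84, 1.93 and 1.97 in Control). The 4 ratios were chosen after the values were seen and are given without a test. Ratios to Ihh could be formed in Tfam cKO libraries alone, where Ptch1 to Ihh was 5.17, 5.58 and 33.0, since Ihh was at 0 in Control.

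**Figure D4:**
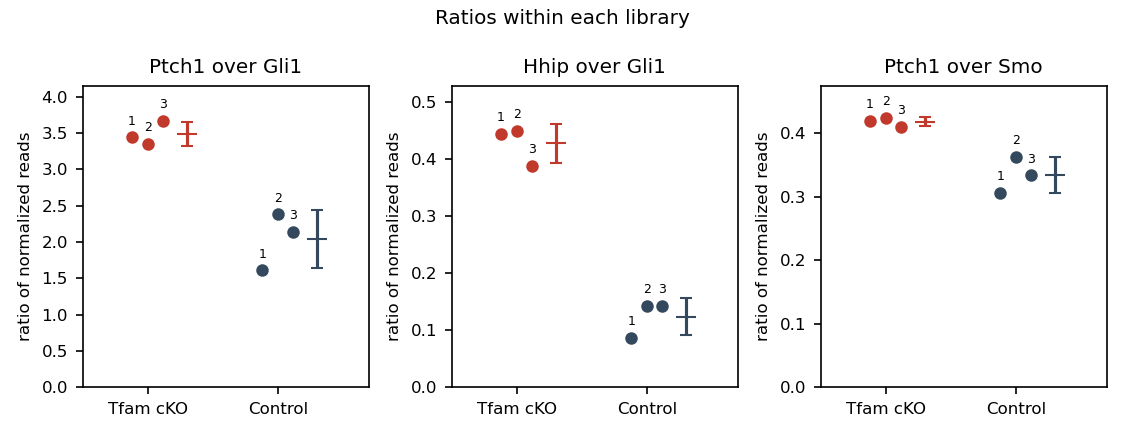
Ratio of normalized reads of Ptch1 to Gli1, Hhip to Gli1 and Ptch1 to Smo within each library (points, numbered by replicate), with the mean and SD of each group, Tfam cKO at left. The mean ratios of Ptch1 to Gli1 are 3.49 ± 0.163 in Tfam cKO and 2.04 ± 0.395 in Control, and every Tfam cKO point in each panel is above every Control point.

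Most of the other genes of the Hedgehog pathway did not pass. Of 35 on the list, 33 were tested, 2 were higher and 4 lower, and the median log2 fold change was 0.33. The share called higher was near the 6.42% of all tested genes, and 6.01% of all tested genes were called lower. Scube3, whose family of secreted proteins helps release Hedgehog ligands from cells, had 15.1, 16.0 and 16.9 normalized reads in Tfam cKO libraries, against 3.01, 1.87 and 2.98 in Control (2.25 ± 0.37 SE, adjusted p = 0.00195). Its groups were far apart, and its call held under every alternative run. Ift172, of the transport machinery of the primary cilium in which Smo signals, also passed (0.56, adjusted p = 0.0489), a call that held without Control replicate 1 but was lost without each other library. The lower genes were Arrb1, Btrc, Adrbk1 and Ift80.

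Arrb1, an arrestin that can carry Smo to the cilium, had 339, 480 and 412 normalized reads in Tfam cKO libraries, against 774, 610 and 680 in Control (-0.75, adjusted p = 0.00308). Btrc, part of the ubiquitin ligase that marks GLI proteins for processing, had 73.6, 82.8 and 55.0 in Tfam cKO, against 123, 130 and 108 in Control (-0.78, adjusted p = 0.00776). Adrbk1, the older symbol of the receptor kinase gene Grk2, was at -0.64 (adjusted p = 0.0133), a call that ended without Tfam cKO replicate 3 (0.0661) or Control replicate 1 (0.0793). Ift80, another cilium transport gene, was at -0.57 (adjusted p = 0.0369), a call that held without Tfam cKO replicate 2 but was lost without each other library. Without both muscle-rich libraries, Arrb1 was the 1 of these 4 that kept its call. Arrestin and receptor kinase transcripts are also abundant in blood-forming cells, and B lymphoid markers were lower in the same libraries, 7 of 7, with a summed level of 111 to 194 in Tfam cKO and 553 to 812 in Control; their part in these falls was not tested.

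Of the coreceptors, Cdon was at 0.75 (adjusted p = 0.111, and 1.01 with 0.0408 without Tfam cKO replicate 2), Boc at -0.42 (adjusted p = 0.181) and Gas1 at -0.17 (adjusted p = 0.511). Sufu, which holds GLI proteins in the cytoplasm, was at -0.18 (adjusted p = 0.726). Kif7, the kinesin that organizes GLI proteins at the cilium tip, was at 0.85 (adjusted p = 0.0536), and it passed without Tfam cKO replicate 1 (0.0456), without Control replicate 3 (0.0281) and with edgeR (0.0474). Of its exon bases, 48 overlap Ticrr on the opposite strand. Of the other Hedgehog ligands, Shh was at 0 in all 6 libraries, and Dhh had 3.25, 0 and 2.12 normalized reads in Tfam cKO and 0 in all 3 Control libraries, below the filter.

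Of 18 genes reported elsewhere as Hedgehog targets in limb or cartilage, 15 were tested and 4 were higher, where 6.42% of all tested genes were. The median was 0.53, and it was 0.31 without Control replicate 1. None fell with limma, edgeR or DESeq2, and 1 was lower at an unadjusted p under 0.05 in each of them. The D cyclin Ccnd1, which drives entry into the cell cycle, had 491, 458 and 636 normalized reads in Tfam cKO libraries, against 88.4, 111 and 85.5 in Control (2.46 ± 0.14 SE, adjusted p = 1.10e-06). Its relative Ccnd2 had 546, 464 and 543 in Tfam cKO, against 292, 290 and 328 in Control (0.77, adjusted p = 6.99e-04). Every Tfam cKO library was above every Control library for both cyclins. The growth factor Tgfb2 had 81.2, 67.8 and 64.5 in Tfam cKO, against 11.0, 36.5 and 18.9 in Control (1.79, adjusted p = 0.00373). Bmp7, a bone morphogenetic protein, had 31.4, 29.2 and 41.3 in Tfam cKO, against 6.03, 19.7 and 9.95 in Control (1.57, adjusted p = 0.0134), a call that ended without Tfam cKO replicate 3 (0.0692), Control replicate 1 (0.0553) or Control replicate 3 (0.0548). These genes also answer to many other signals.

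Of 41 further genes of PTHrP signalling, 36 were tested, 3 were higher and 2 lower, with a median of 0.09. These shares lie near those of all tested genes (6.42% higher and 6.01% lower), so the genes named below are values of single genes and no result about the pathway. Junb, a transcription factor induced by the receptor, had 109, 90.4 and 121 normalized reads in Tfam cKO libraries, against 76.3, 55.3 and 48.7 in Control (0.83, adjusted p = 0.00967). Adenylyl cyclases, which make the cyclic AMP that carries the signal, were split, Adcy3 being higher (0.62, adjusted p = 0.0109) and Adcy7 (-0.66, adjusted p = 0.0274) and Adcy6 (-0.39, adjusted p = 0.0349) lower. Adcy3 shares 1045 exon bases with Cenpo on the opposite strand. Prkar2a, a regulatory subunit of protein kinase A, was higher (0.62, adjusted p = 0.0246). Without Tfam cKO replicate 3 or without Control replicate 3, none of these 5 kept its call by limma (adjusted p = 0.0510 to 0.129), nor did any without both muscle-rich libraries (0.0521 to 0.114). Prkar2a, Adcy6 and Adcy7 also lost theirs without Control replicate 1, Prkar2a and Adcy6 without Tfam cKO replicate 1, and Adcy6 without Tfam cKO replicate 2.

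Gnas, which encodes the G protein subunit coupled to Pth1r, was at 0.09 (adjusted p = 0.644), a direction that turned with quantile normalization (-0.07), and 111 of its exon bases overlap Nespas on the opposite strand. Further along the pathway, Sik3, a kinase switched off by cyclic AMP, was at 0.04 (adjusted p = 0.910), and Mef2c, a transcription factor of enlarging chondrocytes, at 0.21 (adjusted p = 0.189). Hdac4, which restrains Mef2c, had 26.0, 16.0 and 24.3 normalized reads in Tfam cKO libraries, against 14.1, 10.3 and 12.9 in Control, and did not pass (0.76, adjusted p = 0.109). Pth, Pth2 and Pth2r, the other ligands and receptor of the family, were at 0 in all 6 libraries. Over the 3 pathway lists together, 81 of 90 genes were tested, and 9 were higher and 6 lower. Of all tested genes, 6.42% were higher and 6.01% lower.

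**Figure D5:**
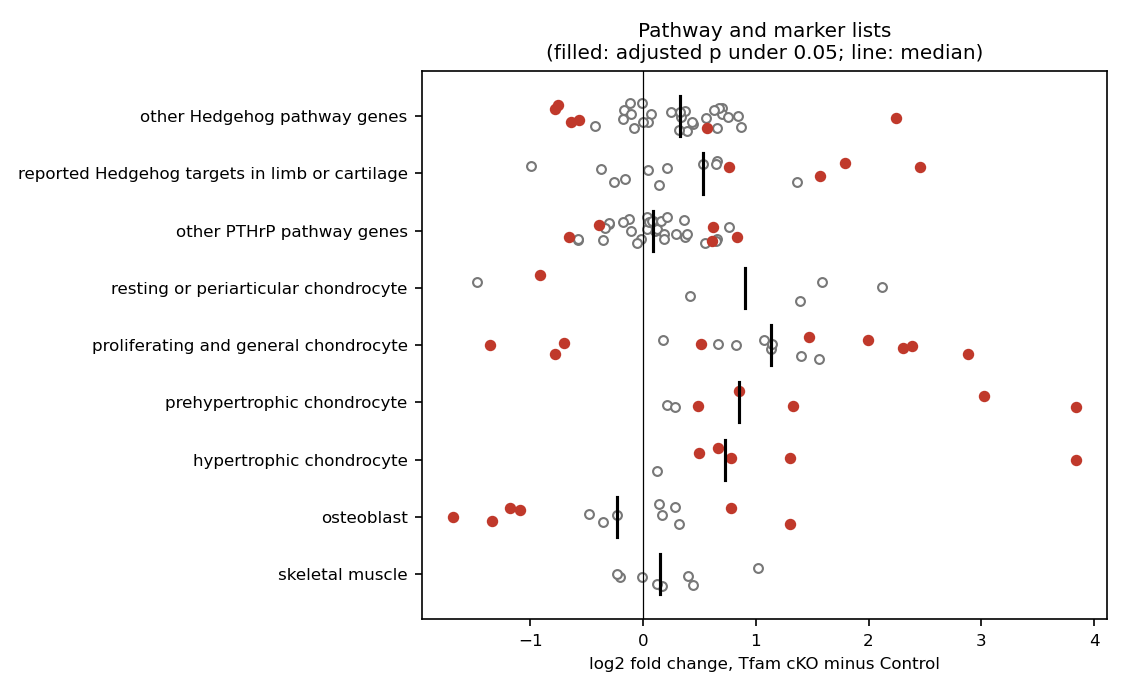
Log2 fold change, Tfam cKO minus Control, of each tested gene of the pathway lists and of 6 lists of cell markers (filled points have an adjusted p under 0.05; a black line marks each list's median). The medians are 0.33 for the other Hedgehog genes, 0.53 for the reported targets, 0.09 for the other PTHrP genes and 1.13 for markers of proliferating and general chondrocytes.

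Among cartilage markers as a whole, the direction depended on the gene. Of 17 markers of proliferating and general chondrocytes, 6 were higher and 3 lower, where 6.42% and 6.01% of all tested genes were. Among the higher was Comp, a cartilage matrix protein (105, 49.0 and 45.5 normalized reads in Tfam cKO libraries, against 8.04, 14.1 and 13.9 in Control). The lower genes were Col11a2 (-1.36, adjusted p = 2.87e-05) and Col11a1 (-0.78, adjusted p = 6.42e-04), which bone-forming cells also express, and Sox6 (-0.70, adjusted p = 0.0248). The list's summed level was 3611 to 4199 normalized reads in Tfam cKO and 6147 to 6760 in Control. That is opposite in direction to its median of 1.13, with positive values for 14 of the 17 genes. Col11a1 and Col11a2 made up most of the sum, at means of 1485 and 1208 in Tfam cKO and 2553 and 3084 in Control. Of 6 perichondrium markers, 1 was higher, Prrx1, the gene whose enhancer drives the Cre (0.97, adjusted p = 2.31e-04), and Dpt did not pass (0.58, adjusted p = 0.583); the summed level was 1547 to 4397 in Tfam cKO and 1662 to 3334 in Control. Of 8 muscle markers, none passed with limma, edgeR or DESeq2 and 0 had an unadjusted p under 0.05, Myh8 being at 1.02 (adjusted p = 0.393) and Ckm at 0.40 (adjusted p = 0.711).

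Markers of other cells that the bone can hold were counted as well. The skin markers Krt5 and Krt14 were at 0 in all 6 libraries, and of 4 skin genes tested none passed with limma, edgeR or DESeq2 and 0 had an unadjusted p under 0.05 (Dsp at 0.56, adjusted p = 0.549; Krt10 at -0.37, adjusted p = 0.701), with a summed level of 7.57 to 11.3 in Tfam cKO and 6.56 to 9.95 in Control. Rag1, needed to assemble antigen receptors, is on the B lymphoid list and fell (-4.19, adjusted p = 4.45e-05). Of 4 erythroid genes 1 was lower, Slc4a1 (-0.78, adjusted p = 0.0224), and of 7 myeloid genes 2 were lower, Ltf (-0.56, adjusted p = 0.0411) and S100a8 (-0.44, adjusted p = 0.0435). Of 5 endothelial genes 1 was higher, Emcn (0.70, adjusted p = 0.0112), with Pecam1 at 0.24 (adjusted p = 0.161), and of 7 osteoclast genes 1 was higher, Mmp9 (0.70, adjusted p = 0.00541), with Atp6v0d2 at 0.22 (adjusted p = 0.254). Mmp9 lost its call with quantile normalization (0.13, adjusted p = 0.517), and the Slc4a1, Ltf, S100a8 and Emcn calls each ended without at least 1 library.

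The profiles most like those of Ihh, Ptch1 and Pth1r were found by Euclidean distance over the 6 libraries, on the log2 scale relative to the Control mean, among genes with a mean of at least 20 normalized reads. Nearest to Ihh were Anxa8, an annexin (distance 1.60), the transcription factor Atf5 (1.87) and Comp (1.91), of 9692 candidates. None of these was close, beside the distances given below for Ptch1 and Pth1r. Ihh, at a mean of 8.80 in Tfam cKO, is itself under the level of 20 set for candidates. Anxa8 had 88.7, 54.6 and 45.5 normalized reads in Tfam cKO libraries, against 10.04, 12.2 and 8.04 in Control. Nearest to Ptch1 were Actn1, an actin crosslinker (0.102), Akap2, an anchor of protein kinase A (0.118), and Cry1, a clock repressor (0.118). Actn1 had 509, 474 and 500.5 in Tfam cKO, against 284, 332 and 328 in Control. Nearest to Pth1r were Luzp1 (0.112), Klhl22 (0.140) and Paip1 (0.147), with log2 fold changes of 0.45, 0.50 and 0.46. These distances describe the 6 libraries alone.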

How the data were processed

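RNA integrity numbers were above 6.7, and 50 ng of RNA per sample was made into directional poly(A) libraries for an Illumina MiSeq, per the labels' protocols. TopHat, Cufflinks and mm10 are named in the submitters' processing notes. No source used here gives the method of counting or its use of strand. A single table was deposited, with a signal per gene and library, which the values show to be read counts divided by 1 size factor per library, and a p-value and q-value per gene. In each library 100% of values were whole multiples of 1 read (tolerance 0.001 reads). In Control replicates 1 and 3, 1 read is worth within 1% of 1, so that check is weaker there. Genes with a mean of at least 1 were tested with limma 3.58.1 (R 4.3.3; log2 of normalized count plus 1, trend, genotype only, all 6 libraries, Benjamini-Hochberg at 0.05). Alternatives were other pseudocounts, filters and scalings, removal of the trend with exon length, a replicate block, a robust fit, each library left out, the authors' q, and edgeR 4.0.16 and DESeq2 1.42.0 on recovered reads. Another 2 were chosen after seeing the data: both muscle-rich libraries left out, and ratios to Gli1 and Smo. Scripts were tested on simulated data. Changes were simulated only in genes with more reads than Ihh, Hhip or Pthlh, so that test does not cover genes with so few.

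The genes, lists and naming rule were chosen with earlier results of these data known. The rule names the 9 genes and Tfam, set members of each pathway list with its called genes of smallest p, all called targets, the 2 genes of smallest p in each marker list, and the 3 nearest profiles to Ihh, Ptch1 and Pth1r. Runx3, Sp7, Spp1, Alpl, Col1a1, Col1a2, Sox6, Prg4, Cytl1, Gdf5, Clu, Foxa2, Foxa3, Sfrp5, Shh, Dhh, Pth, Pth2, Pth2r, Krt5 and Krt14 were named after their values were seen. The rule also names 3 genes that are not reported here. Libraries of the same group correlated at 0.950 to 0.967 across genes, and no pair agreed within sampling noise.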

Additional observations from a re-analysis of the deposited data

How the results depend on the processing

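Depth limits Ihh, Hhip and Pthlh most, since each rests on at most 12 reads in a library. With both muscle-rich libraries left out, 672 genes were called, 0 of the 9 genes, 1 other Hedgehog gene higher and 1 lower, and 0 other PTHrP genes in either direction by limma, with Tfam at -0.56 (adjusted p = 0.165); fewer samples enter that fit. DESeq2 called 1149 genes, 2 of the 9 and 1 other PTHrP gene as lower, and gave -0.80 for Tfam (adjusted p = 0.0553). The authors' deposited table called 1 of the other PTHrP genes as lower. A mean of at least 5 left 2 of the 9 called, since Ihh was not tested and Hhip had an adjusted p of 0.0558. The other Hedgehog genes called higher numbered 1 with pseudocount 0.1, no filter or rescaling by the median of ratios, and 4 with the robust fit, which also called 1 target lower. The median of the targets was 0.42 with pseudocount 5. Quantile normalization turned Gnas to -0.071. The cause of these moves was not tested.

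Leaving out each library in turn gave 893 to 1818 called genes, 1 to 3 of the 9 called, 1 to 3 other Hedgehog genes higher and 2 to 4 lower, a target median of 0.31 to 0.58, and 0 to 4 other PTHrP genes higher and 0 to 2 lower. The number called was 893 without Control replicate 1, 1070 without Tfam cKO replicate 3, 1113 without the third Control library and 1155 without the first Tfam cKO library. The range was -0.94 to -0.57 for Tfam, -0.11 to 0.17 for Gli3, -0.16 to 1.15 for Ckm, -0.18 to 1.41 for Dpt, -0.63 to 0.10 for Krt10, -0.14 to 0.18 for Sik3 and -0.34 to 0.013 for Sufu. Of the 44 called genes among the 68 named by the rule and tested, 0 reversed under any alternative, and of their 879 values 739 kept the call. The genes named after their values were seen are not among the 68. Of those, Col1a1 turned from -1.09 to 0.02 with quantile normalization.

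Replicate numbers did not pair the libraries: the deviations of same-numbered libraries correlated at -0.23, 0.0096 and 0.087. With the replicate block, 1290 genes were called, 2 of the 9, 1 other Hedgehog gene as higher and 0 other PTHrP genes as lower (2 without the block, by limma). Of the 9, Ptch1 (adjusted p = 0.0540) and Hhip (0.0838) were not called with the block.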
